A study of Mus musculus with 9 samples.

Results

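The Hox cluster genes were taken as every row of the expression table whose symbol is Hox, a cluster letter from a to d and a paralog number, which gave 39 members among 21356 named genes, of which 38 are described. The expression table came from poly-A selected RNA of midbrain tissue dissected from C57BL/6 mouse fetuses at E13.5, with 9 libraries in all. The 3 floxed controls were Gpr161 f/f without Cre, the 3 Cre controls were Gpr161 f/+;Wnt1-Cre, and the 3 cKO were Gpr161 f/f;Wnt1-Cre. Gpr161 is a ciliary receptor that holds back Sonic hedgehog signaling, and all 9 libraries came from fetuses with at least 1 floxed allele of it. Wnt1-Cre recombines in the dorsal neural tube, the midbrain and the neural crest, so cells outside that lineage kept their Gpr161 alleles. The Cre controls carried Cre together with 1 floxed allele, and no group carried Cre without a floxed allele.

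Hox genes encode homeodomain transcription factors that lie in order along 4 clusters, and genes of the same number in different clusters form a paralog group. Their anterior limits in the embryo follow that order, with the low-numbered groups reaching the hindbrain and the high-numbered groups starting in the trunk. The midbrain is known for lying in front of the Hox domain, under Otx2, and cranial neural crest that leaves it is also Hox-negative, so Hox transcripts in a midbrain dissection are commonly read as a sign of hindbrain tissue. In the hindbrain, Hox genes are switched on by retinoic acid and by segment factors such as Egr2, and Hox proteins bind DNA together with cofactors of the TALE class, Pbx and Meis.

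The windows shown next are the 250 bases before the RefSeq start of transcription of the 4 expressed Hox genes that have an entry in the promoter table, and they are shown because these genes moved differently in the samples. Hoxa2 was lower in cKO than in floxed controls, Hoxa3 was not, and Hoxd1 and Hoxd8 had their highest values in the Cre controls. Capitals mark matches, on either strand, to TGATNNAT, the core of the Pbx-Hox site, and to TGACAG, the Meis site.
Hoxa2: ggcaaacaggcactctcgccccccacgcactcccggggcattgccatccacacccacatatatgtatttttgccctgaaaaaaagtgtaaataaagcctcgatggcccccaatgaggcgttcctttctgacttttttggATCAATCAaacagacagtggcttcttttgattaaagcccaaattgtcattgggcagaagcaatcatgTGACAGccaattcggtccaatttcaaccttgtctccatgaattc
Hoxa3: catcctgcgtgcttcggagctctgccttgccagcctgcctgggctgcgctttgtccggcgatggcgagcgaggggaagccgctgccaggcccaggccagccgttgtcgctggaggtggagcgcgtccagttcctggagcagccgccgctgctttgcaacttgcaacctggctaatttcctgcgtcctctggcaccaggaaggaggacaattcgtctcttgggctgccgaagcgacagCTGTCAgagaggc
Hoxd1: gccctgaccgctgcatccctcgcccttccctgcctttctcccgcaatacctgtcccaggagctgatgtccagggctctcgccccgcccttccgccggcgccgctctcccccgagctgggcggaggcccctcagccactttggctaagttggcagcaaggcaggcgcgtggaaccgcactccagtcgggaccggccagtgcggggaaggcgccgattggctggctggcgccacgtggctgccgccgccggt
Hoxd8: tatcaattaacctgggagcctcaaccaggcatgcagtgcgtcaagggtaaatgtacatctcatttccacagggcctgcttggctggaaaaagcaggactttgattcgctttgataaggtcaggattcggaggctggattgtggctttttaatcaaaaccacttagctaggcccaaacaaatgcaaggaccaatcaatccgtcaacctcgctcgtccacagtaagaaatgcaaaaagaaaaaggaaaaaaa

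On GRCm38.p6 these windows were chr6:52164832-52165081 on the minus strand for Hoxa2, chr6:52213068-52213317 on the minus strand for Hoxa3, chr2:74762730-74762979 on the plus strand for Hoxd1 and chr2:74704365-74704614 on the plus strand for Hoxd8. In the GENCODE annotation, the Hoxa2 window lay in an intron of Gm28308, the Hoxa3 window overlapped exons of Hoxa3, Gm28308 and Hoxaas3, the Hoxd1 window overlapped an exon of the antisense gene Haglr, and the Hoxd8 window lay in an intron of the antisense gene Hoxd3os1. The Hoxa2 window held a Pbx-Hox match that starts 111 bases before the start site and a Meis match 44 bases before it. The Hoxa3 window held a Meis match 13 bases before the start site, and the Hoxd1 and Hoxd8 windows held neither. Of 32851 promoter windows in the table, 8.85% held the Pbx-Hox letters and 19.2% the Meis letters, and of the 24 Hox windows 4 held the first and 2 the second. The windows of Hoxb2 and Hoxb3 were not analysed here, and a link between the matches and the expression of these genes was not tested.

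The deposited values were on a log2 scale, normalized between libraries and shrunk toward a common level at low expression. A gene was tested when its linear value (2 to the power of the log2 value) reached 1 cpm, that is 1 in 1000000 of the summed linear values, in at least 3 libraries, which corresponds to between 4.73 and 4.78 on the log2 scale. The linear values summed to between 26609942 and 27496648 per library, but sequencing depth cannot be read from normalized values and is unknown. The midbrain marker Otx2 had log2 values between 11.28 and 11.58 in the 9 libraries, and 22 of 22 midbrain markers passed the minimum. Neither checks the label midbrain, since Otx2 is also in the choroid plexus list below, and other lists passed in full. These included 12 of 12 genes of rhombomere 1 and 8 of 8 of choroid plexus. Gpr161 itself had log2 values of 11.80, 11.74 and 11.78 in floxed controls, 11.77, 11.91 and 11.96 in Cre controls and 11.74, 11.95 and 11.94 in cKO. The summed transcript of Gpr161 did not pass in cKO against the floxed control, at a log2 fold change of 0.11 (95% interval -0.039 to 0.25, adjusted p = 0.223), and a value over the whole gene does not check the deletion if most of the transcript remains. The control libraries differed in their content of choroid plexus and mesenchyme transcripts, given after the Hox values. The labels number the libraries but do not say whether each library is 1 fetus, nor which fetuses were littermates.

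Of the 38 Hox genes described, 6 reached the minimum, which is 15.8% of them against 65.7% of all named genes. They were Hoxd1 of paralog group 1, Hoxa2 and Hoxb2 of paralog group 2, Hoxa3 and Hoxb3 of paralog group 3, and Hoxd8 of paralog group 8. By position along the clusters, 5 members of paralog groups 1 to 3 reached it, 1 of 15 members of groups 4 to 8, and 0 of 16 members of groups 9 to 13. Members of the Hoxa, Hoxb and Hoxd clusters were among them, and 0 of 9 Hoxc genes. Hoxd8 had the highest paralog number of the 6.

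**Figure D1:**
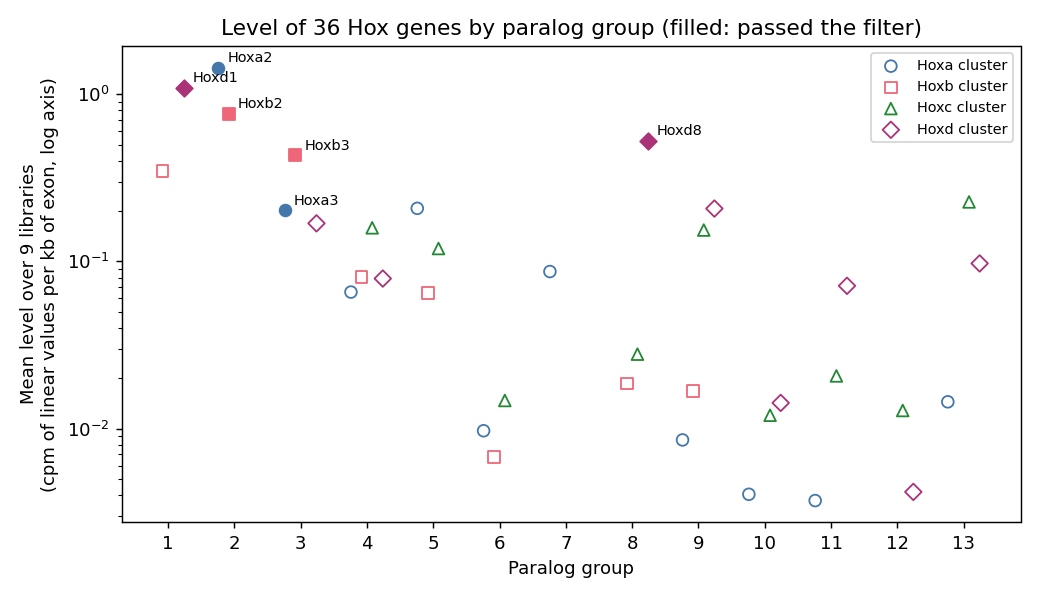
Mean linear value over the 9 libraries, in cpm per kb of exon on a log axis, against paralog group, for 36 Hox genes, with filled symbols for the 6 that reached the minimum of 1 cpm. Hoxb7 and Hoxb13 are left off because they are listed at 0 in every library, and low points are raised or flattened by the shrinkage of the values. The filled points lie in paralog groups 1 to 3, with Hoxd8 in group 8 the single exception.

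Levels of different genes were compared per kb of exon. The mean linear level over the 9 libraries was highest for Hoxa2, at 1.44 cpm per kb, followed by Hoxd1 at 1.09, Hoxb2 at 0.766, Hoxd8 at 0.527, Hoxb3 at 0.430 and Hoxa3 at 0.203 cpm per kb. That order changed with genotype. In the floxed controls Hoxa2 stood at 2.06 cpm per kb, Hoxb2 at 1.14 and Hoxd1 at 1.01, whereas in the Cre controls Hoxd1, at 1.25, was above Hoxa2 at 1.15 and Hoxb2 at 0.572. In the cKO the corresponding levels were 1.12 for Hoxa2, 1.01 for Hoxd1 and 0.583 for Hoxb2. Hoxa2 is the Hox gene with the most anterior limit in the hindbrain, and Hoxd1 has, in the mouse, no domain in the hindbrain like that of Hoxb1 but is known from sensory neurons.

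The other 32 Hox genes stayed below the minimum. Hoxb7 and Hoxb13 were listed at 0 in all 9 libraries, 10 members had log2 values below 0 in all of them, and 20 had a mean above 0. Of the 32, 30 reached 1 cpm in 0 libraries. The exceptions were Hoxb1, the marker of rhombomere 4, which reached it in Cre control replicate 1 at a log2 value of 4.91, and Hoxd3, which reached it in floxed control replicate 3 at 4.94. With the minimum lowered to 0.25 cpm, 16 members passed. The 30 low members that were not constant had their highest value in Cre control replicate 1 in 13 cases and their lowest in cKO replicate 3 in 11 cases, but the range over all libraries was at most 0.33 on the log2 scale for all of them except Hoxd3 and Hoxb1.

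cKO was first compared with the floxed control. Of the 6 genes, Hoxa2, Hoxb2 and Hoxb3 were lower in cKO, 0 were higher, and Hoxa3, Hoxd1 and Hoxd8 did not pass the test. At an adjusted p under 0.05 (limma, Benjamini-Hochberg over 14029 genes), 38.3% of all genes tested passed in this comparison, 18.8% as lower and 19.5% as higher. The 3 lower Hox genes also had a fold change over 1.5, which 1.58% of all genes tested met as lower, and had no overlap between groups, which held for 27.3% of all genes as lower. RNA from a whole dissection cannot tell fewer cells of a type from less RNA per cell.

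Hoxa2 (chr6:52162417-52164831, GRCm38), which patterns the second rhombomere and the second pharyngeal arch, had log2 values of 6.48, 6.50 and 6.88 in the floxed controls, 5.58, 6.13 and 5.53 in the Cre controls and 5.82, 5.80 and 5.68 in the cKO. Every floxed control lay above every Cre control and every cKO, and Cre control replicate 2 lay above all cKO. The log2 fold change of Hoxa2 was -0.85 in cKO against the floxed control (95% interval -1.20 to -0.50, adjusted p = 0.00273), a 1.80-fold lower level.

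Hoxb2 (chr11:96350525-96354012), the paralog of Hoxa2 with a role in facial motor neurons, had log2 values of 6.16, 6.65 and 7.25 in the floxed controls, 5.52, 6.06 and 5.60 in the Cre controls and 5.85, 5.71 and 5.83 in the cKO. The order of the libraries was again floxed controls above all others, with floxed control replicate 1 only slightly above Cre control replicate 2. The log2 fold change of Hoxb2 in cKO against the floxed control was -0.89 (95% interval -1.41 to -0.38, adjusted p = 0.0132), 1.86-fold lower.

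Hoxb3 (chr11:96323326-96347930), whose hindbrain domain starts behind that of Hoxb2, had log2 values of 5.46, 6.11 and 6.79 in the floxed controls, 5.31, 5.30 and 5.04 in the Cre controls and 5.24, 5.25 and 5.09 in the cKO. The cKO and the Cre controls overlapped completely, and the floxed controls lay above both and far apart from each other. The log2 fold change of Hoxb3 in cKO against the floxed control was -0.93 (95% interval -1.50 to -0.36, adjusted p = 0.0168), 1.91-fold lower, and without floxed control replicate 3 it was -0.59 (adjusted p = 0.0313). Without cKO replicate 3 Hoxb3 did not pass (adjusted p = 0.0529). The fit takes 1 spread per gene over the 3 genotypes, so these intervals do not carry the full spread of the floxed controls. The SD of Hoxb3 was 0.67 in floxed controls, 0.16 in Cre controls and 0.092 in cKO. For Hoxb2 it was 0.55, 0.29 and 0.079.

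The other 3 of the 6 genes did not pass against the floxed control. Hoxa3 (chr6:52169062-52213336) had log2 values of 4.78, 4.87 and 5.25 in floxed controls, 4.86, 5.21 and 4.92 in Cre controls and 5.08, 5.11 and 5.25 in cKO, at a log2 fold change of 0.18 (95% interval -0.096 to 0.46, adjusted p = 0.275). Its highest value among the floxed controls was again in replicate 3, and without that library Hoxa3 passed as higher in cKO (log2 fold change 0.32, adjusted p = 0.046). Hoxd1 (chr2:74762980-74765142) had 5.67, 5.74 and 5.62 in floxed controls, 5.76, 6.23 and 5.87 in Cre controls and 5.71, 5.70 and 5.65 in cKO. Hoxd8 (chr2:74704615-74707933) had 5.25, 5.19 and 5.02, then 5.29, 5.71 and 5.33, then 5.24, 5.22 and 5.26. For both Hoxd genes the cKO overlapped the floxed controls, and the Cre controls lay above both groups. The interval of the log2 fold change in cKO against the floxed control was -0.22 to 0.24 for Hoxd1 and -0.14 to 0.32 for Hoxd8.

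**Figure D2:**
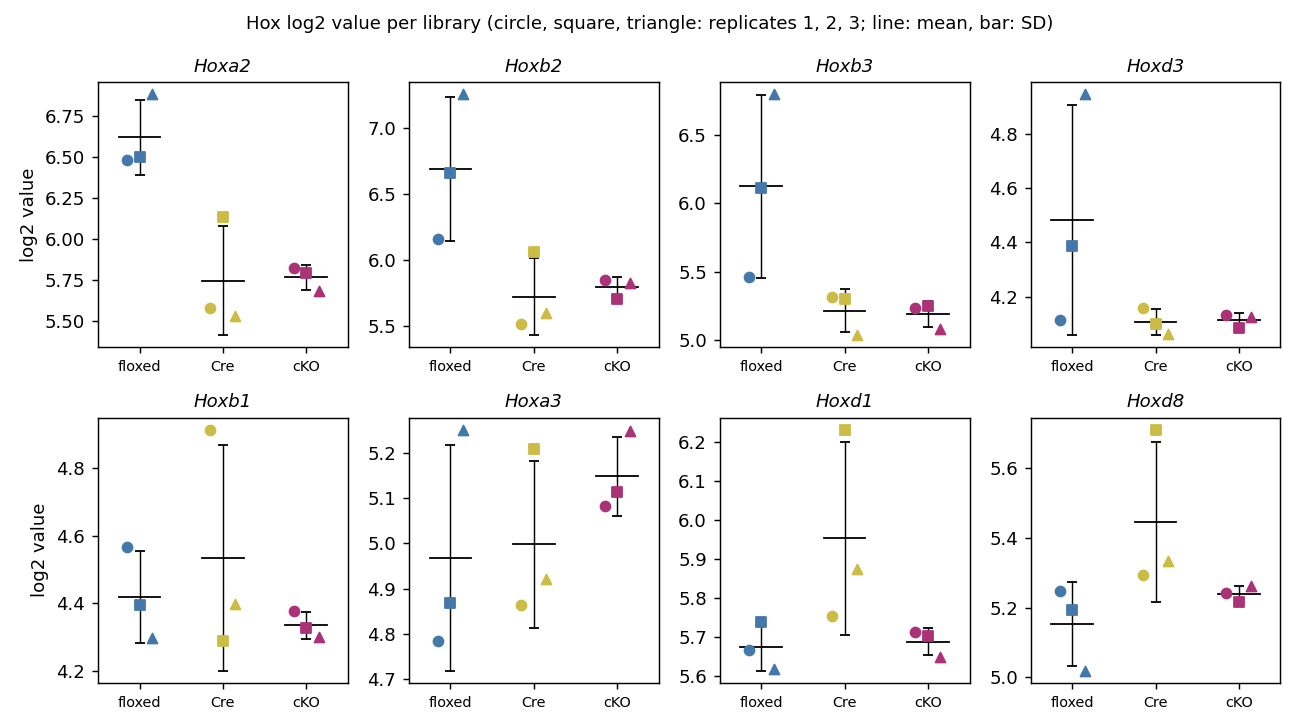
Log2 value of 8 Hox genes in each of the 9 libraries, with circle, square and triangle for replicates 1, 2 and 3, a line for the mean and a bar for the SD of 3 libraries. Hoxa2, Hoxb2, Hoxb3 and Hoxd3 (top) are highest in floxed control replicate 3, while Hoxd1 and Hoxd8 are highest in Cre control replicate 2.

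Of the 6 Hox genes, 0 passed in cKO against the Cre control (limma), where 9.72% of all genes tested did, and at an unadjusted p under 0.05 Hoxd1 was the single Hox gene, against 29.3% of all genes. The log2 fold changes in cKO against the Cre control were 0.020 for Hoxa2 (95% interval -0.33 to 0.37, adjusted p = 0.947), 0.071 for Hoxb2 (-0.44 to 0.59, adjusted p = 0.861) and -0.024 for Hoxb3 (-0.59 to 0.54, adjusted p = 0.959). All 3 intervals are wide and include 0. The fit pools the spread of the 3 genotypes, so the floxed controls enter this width. With only the libraries compared, the standard error was 0.148 for Hoxa2, 0.133 for Hoxb2 and 0.0865 for Hoxb3. In the fit on all 9 libraries it was 0.156, 0.231 and 0.255. Hoxd1 and Hoxd8 were lower in every cKO than in every Cre control, which held for 13.7% of all genes tested, with log2 fold changes of -0.26 (95% interval -0.49 to -0.035, adjusted p = 0.123) and -0.21 (-0.44 to 0.024, adjusted p = 0.213). Hoxd1 passed without Cre control replicate 1 (log2 fold change -0.36, adjusted p = 0.0237). Without Cre control replicate 2, the highest library for both genes, the differences were -0.13 for Hoxd1 (adjusted p = 0.25) and -0.074 for Hoxd8 (adjusted p = 0.552). Hoxa3 had a log2 fold change of 0.15 (-0.13 to 0.43).

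The Cre control was then compared with the floxed control, groups that both keep a working Gpr161 allele in the Wnt1 lineage. Here 0 of the 6 Hox genes passed (limma), and over all genes tested 8 passed, or 0.057%. At an unadjusted p under 0.05, 5 of the 6 Hox genes met the limit, Hoxa2, Hoxb2 and Hoxb3 as lower and Hoxd1 and Hoxd8 as higher, where 17.5% of all genes did. Hoxa2, Hoxb2 and Hoxb3 were lower in every Cre control than in every floxed control, which held for 12.1% of all genes, and Hoxd1 and Hoxd8 were higher in every Cre control, which held for 10.7%. The log2 fold changes were -0.87 for Hoxa2 (95% interval -1.22 to -0.52, adjusted p = 0.113), -0.96 for Hoxb2 (-1.48 to -0.45, adjusted p = 0.145), -0.91 for Hoxb3 (-1.47 to -0.34, adjusted p = 0.166), 0.28 for Hoxd1 (0.049 to 0.51, adjusted p = 0.230) and 0.29 for Hoxd8 (0.062 to 0.52, adjusted p = 0.218). Hoxb3 passed without floxed control replicate 1 (log2 fold change -1.24, adjusted p = 0.0358), and Hoxa2 passed without Cre control replicate 2 (log2 fold change -1.06, adjusted p = 0.0264). Other omissions made the differences smaller. Without floxed control replicate 3 they were -0.57 for Hoxb3 (adjusted p = 0.435) and -0.68 for Hoxb2 (adjusted p = 0.432), and without Cre control replicate 2 they were 0.14 for Hoxd1 (adjusted p = 0.282) and 0.16 for Hoxd8 (adjusted p = 0.276). Hoxa3 had 0.030 (-0.25 to 0.31).

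**Figure D3:**
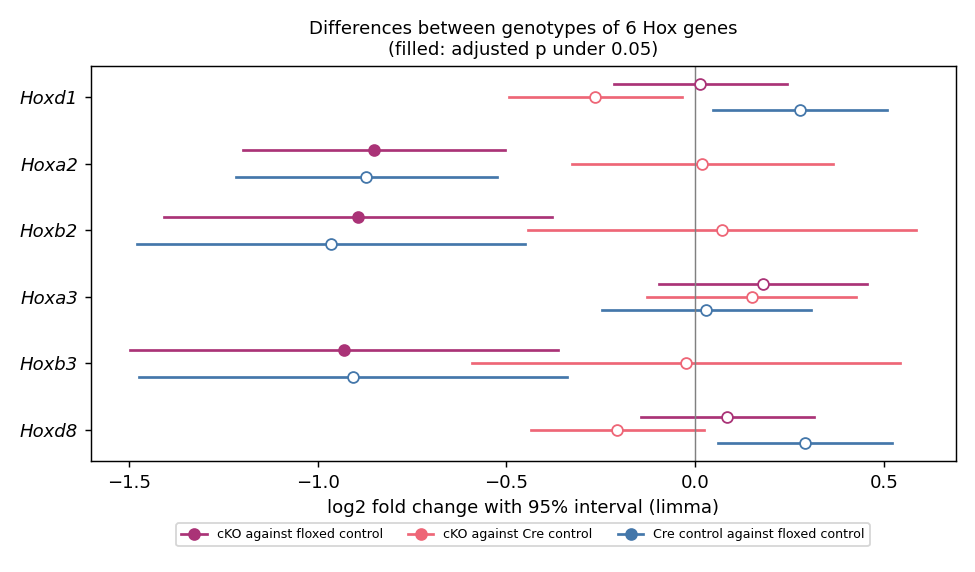
Log2 fold change with its 95% interval (limma) for 6 Hox genes, in 3 comparisons, filled where the adjusted p was under 0.05. For Hoxa2, Hoxb2 and Hoxb3 the values of cKO and of the Cre control against the same 3 floxed controls lie near -0.9, and those of cKO against the Cre control lie near 0. The comparisons share libraries and are not independent.

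Against the 6 control libraries together, Hoxa2 alone among the 6 passed, at a log2 fold change of -0.42 (95% interval -0.72 to -0.12, adjusted p = 0.0379), where 34.0% of all genes tested passed. It was lost without floxed control replicate 3 (adjusted p = 0.0682) and without any 1 of the cKO libraries (0.0879 to 0.122). Hoxb2 had -0.41 (-0.86 to 0.035) and Hoxb3 -0.48 (-0.97 to 0.014). Both passed without floxed control replicate 1, at -0.54 (adjusted p = 0.0294) and -0.64 (adjusted p = 0.0113), whereas without floxed control replicate 3 they had -0.27 and -0.31 and did not pass.

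Among the low Hox genes, a fit without a minimum gave Hoxa4, Hoxa5 and Hoxc13 as higher in cKO than in floxed controls, so that 6 of 36 members passed, against 25.9% of all 19549 genes in that fit. Hoxc13 had log2 values of 3.81, 3.78 and 3.78 in floxed controls, 3.90, 4.04 and 3.86 in Cre controls and 4.11, 4.02 and 3.94 in cKO, at a log2 fold change of 0.23 (adjusted p = 0.0128). Hoxa5 had 3.30, 3.32 and 3.30, then 3.38, 3.51 and 3.45, then 3.45, 3.41 and 3.45, at a log2 fold change of 0.13 (adjusted p = 0.0232). Hoxa4 ranged from 1.47 to 1.54 over all libraries, at a log2 fold change of 0.046 (adjusted p = 0.0279). These differences are at most 1.18-fold and lie where the values are shrunk, where the median SD over the libraries was 0.0404 for rows of mean log2 value 2 to 4, such as Hoxc13 and Hoxa5, and 0.0177 for rows of 0 to 2, such as Hoxa4. In that fit against the 6 controls, 2 Hox genes passed (Hoxa4 and Hoxc13), where 22.0% of all genes did. Hoxd3, with 4.11, 4.39 and 4.94 in floxed controls, 4.16, 4.10 and 4.06 in Cre controls and 4.13, 4.09 and 4.12 in cKO, did not pass (log2 fold change -0.37, adjusted p = 0.128).

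The spread between libraries of one genotype differed between Hox genes. Within the floxed controls, the highest and the lowest library differed 2.52-fold for Hoxb3 and 2.13-fold for Hoxb2, in linear values, and 1.78-fold for Hoxd3. Of all 14029 genes tested, 14 (0.0998%) had an SD within the floxed controls at least as large as that of Hoxb3 (0.67 on the log2 scale), and 26 (0.185%) at least as large as that of Hoxb2 (0.55). Hoxa2 and Hoxa3 varied less, 1.32-fold and 1.38-fold, and Hoxd1 varied 1.09-fold. Floxed control replicate 3 was the highest of its group for Hoxa2, Hoxa3, Hoxb2, Hoxb3 and Hoxd3 and the lowest for Hoxd1, Hoxd8 and Hoxb1.

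The Cre controls were spread in another way. Cre control replicate 2 was the highest of its group for Hoxa2, Hoxa3, Hoxb2, Hoxd1 and Hoxd8, with 1.52-fold between the highest and the lowest Cre control for Hoxa2, 1.46-fold for Hoxb2, 1.39-fold for Hoxd1 and 1.33-fold for Hoxd8. Hoxb3 did not follow, at 1.21-fold and with replicates 1 and 2 nearly equal. The cKO were close together, with at most 1.12-fold between libraries for each of the 6 genes, and their SDs on the log2 scale were between 0.023 and 0.092.

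Summed over the 38 members described, the linear Hox level was 17.9, 20.1 and 24.6 cpm in the floxed controls, 16.3, 18.8 and 15.4 in the Cre controls and 16.2, 15.8 and 15.6 in the cKO. The floxed controls were the highest group, although Cre control replicate 2 lay above floxed control replicate 1. Paralog group 2 made up most of that difference, with 5.95, 7.10 and 9.90 cpm in floxed controls, 3.52, 5.10 and 3.47 in Cre controls and 4.19, 3.95 and 3.93 in cKO. Paralog group 3 had 3.29, 4.43 and 6.59, then 3.26, 3.48 and 2.93, then 3.27, 3.29 and 3.25 cpm, so that floxed control replicate 1 was level with the cKO. Hoxb1 and Hoxd1 together ran against this, with 2.76, 2.77 and 2.52 in floxed controls, 3.16, 3.53 and 2.93 in Cre controls and 2.69, 2.65 and 2.54 in cKO, so that every Cre control lay above every other library. Paralog group 2 held between 33.1% and 40.3% of the summed Hox level in the floxed controls, between 21.6% and 27.2% in the Cre controls and between 25.04% and 26.0% in the cKO. Summed over paralog groups 9 to 13 the level was between 2.13 and 2.36 cpm in every library, a sum of low, shrunk values.

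Annotation overlap bears on several of these values, since kallisto, which the processing notes name, divides reads between transcripts that share sequence. Of the 31-base words in the GENCODE transcripts of Hoxb3, 52.7% also occur in transcripts of other genes, and 52.1% in Hoxb3os, an antisense gene. For Hoxb2 the share was 26.5%, also with Hoxb3os, for Hoxa3 26.0% and for Hoxa2 13.7% with Gm28308. Hoxd3 shared 61.2% of its words, 52.6% with Gm28230. Hoxd1 and Hoxd8 shared 0.109% and 0.073%. Words were matched on either strand because the library kit as named does not mark strand, and Hoxb3os was not analysed here, so reads from the shared part of Hoxb2 and Hoxb3 cannot be told apart from those of their antisense partner. Between members of different clusters the shares were small, at 0.664% for Hoxb3 with any Hox gene and 2.61% for Hoxa6 with Hoxb4.

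The partners of Hox proteins were measured as a list of 8 TALE genes, all of which were tested. In cKO against the floxed control 4 were lower (Meis1, Meis2, Meis3 and Pbx3), 1 was higher (Pbx2) and 3 did not pass, and in cKO against the Cre control 0 of 8 passed, with 2 at an unadjusted p under 0.05 (limma). Of all genes tested, 38.3% passed in the first comparison, 9.72% passed in the second and 29.3% had such an unadjusted p in it. Meis2 had log2 values of 12.66, 12.39 and 12.71 in floxed controls, 12.19, 12.31 and 12.14 in Cre controls and 12.01, 11.96 and 12.08 in cKO. All floxed controls lay above all other libraries, and all cKO below all controls. The cKO differed by -0.57 on the log2 scale from the floxed control (adjusted p = 0.000914) and by -0.20 from the Cre control (adjusted p = 0.135). Meis1 and Pbx3 had log2 fold changes of -0.46 each against floxed controls (adjusted p = 0.00553 and 0.000913) and of -0.079 and -0.099 against Cre controls (adjusted p = 0.624 and 0.328). Meis and Pbx genes are also expressed in the midbrain itself, and Meis2 is a marker of its roof.

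Of 13 genes that act upstream of Hox genes in the hindbrain, 7 were tested. In cKO against the floxed control 2 were higher (Fgf8 and Rarg), 1 was lower (Cyp26b1) and 4 did not pass, so that 3 of 7 passed where 38.3% of all genes did. Cyp26b1, which breaks down retinoic acid, had log2 values of 12.36, 11.93 and 12.28 in floxed controls, 11.81, 12.11 and 11.41 in Cre controls and 11.03, 11.11 and 11.18 in cKO. Its cKO values lay below those of every control, with log2 fold changes of -1.08 against floxed controls (adjusted p = 0.0011) and -0.67 against Cre controls (adjusted p = 0.0314). Fgf8, the signal of the boundary between midbrain and hindbrain, had log2 fold changes of 1.34 (adjusted p = 0.000217) and 0.55 (adjusted p = 0.0278). Egr2, a segment factor of the hindbrain, stayed between 2.10 and 2.17 on the log2 scale and was below the minimum, as were Cdx1, Cdx2, Cdx4, Cyp26a1 and Cyp26c1.

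The Polycomb and trithorax genes, which keep Hox clusters silent or active, had 6 lower and 3 higher of 20 in cKO against the floxed control, and 2 lower and 0 higher against the Cre control. These counts were near the shares of all genes tested, 38.3% and 9.72%. The 2 genes lower against the Cre control were Ezh1 (log2 fold change -0.14 and -0.23, adjusted p = 0.0455 and 0.0253) and Kmt2d (-0.23 and -0.29, adjusted p = 0.0401 and 0.0486). Of the genes beside the clusters, 7 were tested, and antisense transcripts were not analysed here. Evx1, next to Hoxa13, Evx2, next to Hoxd13, and Lnpk were lower in cKO than in floxed controls (log2 fold change -0.57, -0.62 and -0.18), and Skap2 was higher (0.40). Against the Cre control 0 of 7 passed, with 2 at an unadjusted p under 0.05 (limma). That is near the share of all genes tested with such an unadjusted p there, 29.3%. Evx1 and Evx2 had values in every library, with Evx1 between 6.79 and 7.61 on the log2 scale in all libraries, while Hoxa13 was below 0 in all of them.

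The tissue makeup was followed with markers of the caudal hindbrain outside the Hox clusters, of which 11 of 15 were tested. In cKO against the floxed control 7 were lower and 0 higher, with a median log2 fold change of -0.28 over the 11, against 0.0112 over all genes tested, of which 18.8% passed as lower. Those that were lower were Lbx1 and Slc6a5 of hindbrain interneurons, Evx1, Atoh1, Epha4, Lhx4 and Tbx20. In cKO against the Cre control 1 was lower, Lhx4 (log2 fold change -0.41, adjusted p = 0.0213), where 9.72% of all genes tested passed. In Cre against floxed controls 0 passed and 7 of 11 had an unadjusted p under 0.05 as lower (limma). Over all genes tested, 17.5% had such an unadjusted p there, in either direction. The median over the 11 was -0.37 in Cre against floxed controls, against -0.00101 over all genes. Summed over the list, the linear level was between 173 and 179 cpm in the floxed controls, between 139.7 and 178 in the Cre controls and between 136 and 143 in the cKO. No marker was at 0 in every library, and Egr2, Mnx1, Wnt8a and Cyp26c1 were below the minimum. Part of the list is also expressed in the midbrain or in rhombomere 1, which share Lmx1b and Atoh1 with it. The part of this list in the Hox result was not tested.

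Library by library, the summed list did not follow Hoxa2 and Hoxb2 throughout, since its linear level in Cre control replicate 2 (178 cpm) lay above floxed control replicates 1 and 2 (173 and 174 cpm). Single genes of the list, chosen after their values were seen, had their high values in the same libraries as Hoxa2 and Hoxb2. Lbx1 had log2 values of 7.08, 7.01 and 7.47 in floxed controls, 6.01, 6.99 and 6.11 in Cre controls and 6.15, 6.04 and 6.06 in cKO. Slc6a5, the glycine transporter, had 6.44, 6.38 and 6.82, then 5.76, 6.15 and 5.77, then 5.70, 5.55 and 5.72. For both genes floxed control replicate 3 was the highest library and Cre control replicate 2 the highest Cre control, as it was for Hoxa2 and Hoxb2. Of the 11 tested markers of the list, 9 were lower and 2 higher in Cre against floxed controls, passed or not. How many of them share this order of libraries was not counted.

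**Figure D4:**
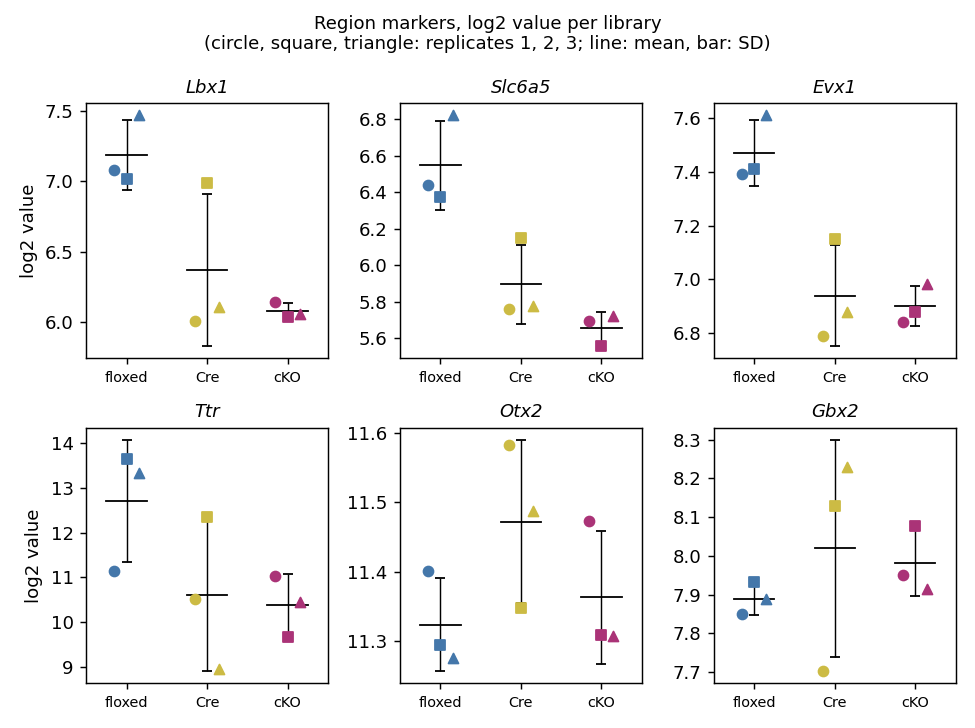
Log2 value of 6 markers in each of the 9 libraries, with circle, square and triangle for replicates 1, 2 and 3, a line for the mean and a bar for the SD of 3 libraries. Lbx1, Slc6a5 and Evx1, of the hindbrain, are highest in floxed control replicate 3 and, among the Cre controls, in replicate 2, while Otx2 and Gbx2, of midbrain and rhombomere 1, are not. The hindbrain markers shown were chosen after their values were seen. The sum over their whole list did not follow Hoxa2 and Hoxb2 throughout, since Cre control replicate 2 lay above floxed control replicates 1 and 2. Ttr, of the choroid plexus, spans the widest range.

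Other marker lists also differed between libraries. Gbx2, the factor of rhombomere 1, had log2 values between 7.70 and 8.23 and did not pass in any comparison. Of its list of 12 genes, 6 were lower and 2 higher in cKO against the floxed control. Of all genes tested, 18.8% passed as lower and 19.5% as higher there. Against the Cre control 1 of the 12 was lower and 1 higher. Choroid plexus genes had a summed linear level between 232 and 672 cpm in the floxed controls, between 178 and 364 in the Cre controls and between 174 and 230 in the cKO. Ttr, their main transcript, had 11.14, 13.65 and 13.32 in floxed controls, 10.51, 12.35 and 8.95 in Cre controls and 11.04, 9.67 and 10.46 in cKO. Floxed control replicate 1 was the lowest and Cre control replicate 2 the highest of its group for Ttr, as for Hoxb2, whereas floxed control replicate 2 was higher than replicate 3 for Ttr but not for Hoxb2. In cKO against the floxed control 1 of 8 choroid plexus genes passed, Kcne2, as lower, where 38.3% of all genes passed. Against the Cre control 0 of the 8 passed, where 9.72% of all genes did. The part of the choroid plexus genes in the Hox result was not tested.

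Most listed genes of cranial mesenchyme and red blood cells were higher in cKO than in floxed controls. Of 16 genes of head mesenchyme and meninges, 11 were higher and 0 lower in cKO against the floxed control, and the summed linear level was between 1188 and 2152 cpm in floxed controls, between 1555 and 2494 in Cre controls and between 2468 and 2594 in cKO. Against the Cre control 0 of the 16 passed, with 2 at an unadjusted p under 0.05, both higher (limma). In Cre against floxed controls 0 of 16 passed and 8 had an unadjusted p under 0.05 as higher (limma). Such an unadjusted p, in either direction, was found for 29.3% of all genes in cKO against the Cre control. In Cre against floxed controls it was found for 17.5%. Endothelial genes had 5 higher and 0 lower of 12, erythroid genes 8 higher and 0 lower of 11, and microglial genes 1 higher and 0 lower of 12, where 19.5% of all genes passed as higher. Against the Cre control 5 of 11 erythroid genes were higher, while 0 of 12 endothelial and 0 of 12 microglial genes passed, with 1 and 2 at an unadjusted p under 0.05 (limma). The erythroid sum was 5665, 9677 and 6891 cpm in floxed controls, 7963, 7265 and 6764 in Cre controls and 15145, 8769 and 16782 in cKO, so cKO replicate 2 lay below floxed control replicate 2. Genes of neural crest glia and sensory ganglia had 1 higher and 4 lower of 9. Their sum was between 160 and 168 cpm in floxed controls, between 146 and 165 in Cre controls and between 108 and 120.5 in cKO. Forebrain genes had 0 higher and 1 lower of 11, Lhx2, in cKO against either control. Midbrain genes had 5 higher and 8 lower of 22 against the floxed control, and 4 higher and 3 lower against the Cre control. Their sum lay between 1231 and 1392 cpm in floxed controls, between 1340 and 1387 in Cre controls and between 1227 and 1314 in cKO. Of all genes tested, 18.8% passed as lower against the floxed control, and 9.72% passed in either direction against the Cre control. The part of these tissues in the Hox values was not tested, and genotype and tissue makeup cannot be told apart in 3 libraries a group.

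The genes of the marker lists that passed in cKO against both controls, up to 4 in each list, were, with the log2 fold change against the floxed control and then the Cre control, Otx1 (0.85 and 0.66), Helt (1.06 and 0.90) and Pou4f1 (-0.60 and -0.61) of the midbrain, Fgf17 (1.22 and 0.80) and Zic1 (-0.29 and -0.26) of rhombomere 1, Lhx4 (-0.28 and -0.41) of the hindbrain and Lhx2 (-0.60 and -0.67) of the forebrain. Prdm12 (-0.43 and -0.37) and Scn9a (-0.81 and -0.47) of sensory neurons passed in both as lower. Wnt1 passed in opposite directions, 1.46 and -0.28. The embryonic globins Hba-x (1.02 and 1.12), Hbb-y (0.96 and 1.05) and Hbb-bh1 (0.95 and 0.93) and the alpha-globin Hba-a1 (0.92 and 0.91) were higher in both. Of the 6 Hox genes, 0 passed against both controls, where 9.35% of all genes tested did.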

How the data were processed

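In 9 libraries, poly-A selected RNA from fetal midbrain tissue was sequenced by the authors. They deposited 1 table of log2 values per gene, made comparable between libraries and, from the values, compressed where expression is low. The transformation is not given in the sources used here, and the submitters' processing notes name FastQC 0.10.1, kallisto 0.46.1, DESeq2 and mm10. Of 27360 rows, 5764 carry no gene name and were left out. Where a symbol repeated, the row with the highest mean was kept. Depth is unknown, so precision rests on the spread between 3 libraries per genotype.

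Genes with at least 1 cpm, counted on linear values, in at least 3 libraries were tested (14029). With limma 3.58.1 in R 4.3.3, 1 model covered all 9 libraries and gave each genotype its own mean (eBayes with a trend), two-sided, with Benjamini-Hochberg adjustment. The fit was tested on simulated data. In that test between 98.5% and 99.5% of 200 genes with a log2 change of 1 were recovered, with 4 to 13 false calls. The changed genes were drawn from all genes tested, so that share does not give the recovery for genes as variable as Hoxb2 and Hoxb3. Gene positions, exon lengths and shared words came from GENCODE M21 on GRCm38, and promoter windows from RefSeq. Hox genes were named in full if they were tested or passed without the minimum. The other genes named were reference genes and list members that passed against both controls. Lbx1, Slc6a5, Evx1, Evx2, Ttr, Kcne2 and further list members outside that rule were named after their values were seen. The members and all lists were chosen with earlier results of these data known. Lists were described by counts and medians, without a test. The values of 1 Hox gene and 4 list genes are not reported here and enter no count or sum over members or lists.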

Additional observations from a re-analysis of the deposited data

How the results depend on the processing

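In cKO against the floxed control, Hoxa2 and Hoxb2 passed under 13 of 13 alternatives, and Hoxb3 under 12. The number of Hox genes passing was 3, between 2 (without cKO replicate 3) and 4 (without floxed control replicate 3) with 1 library left out, 6 without a minimum on low values and 5 with a minimum of 0.25 cpm. Against the Cre control it was 0, between 0 and 1 (without Cre control replicate 1). Between the controls it was also 0, and 1 at most, if either floxed control replicate 1 or Cre control replicate 2 was omitted. Against the 6 controls it was 1, between 0 (without floxed control replicate 3 or any cKO library) and 3 (without floxed control replicate 1), 2 without a minimum, 2 with a minimum of 0.25 cpm and 0 with the limit on the fold. A mean of log2 values in place of the summed linear level moved the log2 ratio of the Hox level from -0.387 to -0.066 in cKO against the floxed control and from -0.307 to -0.0424 in Cre against floxed controls, since the mean gives the low members equal weight. With 1 library left out the summed ratio lay between -0.49 and -0.263 in cKO against the floxed control and between -0.41 and -0.183 (without floxed control replicate 3) in Cre against floxed controls, and with only the members above the minimum it was -0.55 and -0.473. The ratio of cKO to Cre control was -0.08, between -0.141 and 0.00192 (without Cre control replicate 2).

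Signs turned for values near 0 that did not pass. Hoxd1 in cKO against the floxed control was -0.00186 with libraries centred on their medians and between -0.0147 and 0.0459 over all alternatives. With 1 library left out, Hoxa2 in cKO against the Cre control lay between -0.0895 and 0.212, Hoxb2 between -0.0327 and 0.239 and Hoxb3 between -0.115 and 0.0283, Hoxa3 in Cre against floxed controls between -0.0752 and 0.172, and Hoxd8 in cKO against the 6 controls between -0.098 and 0.006.

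With the replicate block, the counts were 3, 0, 0 and 1 in these 4 comparisons, the same as without it. The samples share only a number: once genotype means were taken out, correlations across genes were between -0.027 and 0.26 for equal numbers and between -0.282 and 0.161 for unequal ones. Centring or quantile normalization moved the median of all genes by under 0.02. Depth is unknown, and shrunk values limit what the 32 low Hox genes can show.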
